A study of Mus musculus with 2 samples.

Results

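The Hedgehog ligands, receptors and transcription factors described here are 9 genes, Shh, Ihh, Ptch1, Smo, Gli1, Gli2, Gli3, Hhip and Sufu, of 18193 genes measured. They were found as every probe set (a group of short oligonucleotides that reads out 1 transcript) whose symbol in the platform annotation is one of these names, which gave 22 of 45101 probe sets. The set was put together because Shh stood among the highest differences of these same data, so its difference is a description and carries no test. The samples were mucosal scrapings from the colon of C57BL/6 mice treated for 3 days with 3% DSS (dextran sulfate sodium), which damages the lining of the colon. Hif-2αF/F mice carry floxed alleles of Epas1, which encodes HIF-2α, a transcription factor stabilised by low oxygen. In Hif-2αΔIE mice the gene is taken to be deleted in the intestinal epithelium, a reading of ΔIE that comes from knowledge of this mouse model, since the labels do not spell it out or name the promoter that drives Cre. Mice were 6 to 8 weeks old per the sample labels and 7 weeks old per the design text, and both genotypes received DSS, so no untreated colon is among the samples. The design text counts 6 Hif-2αF/F and 5 Hif-2αΔIE mice, but there is 1 array per genotype, and the sources used here do not say whether RNA of several mice was pooled. Every value below therefore compares 2 arrays, with no replicate, error or test between genotypes.

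Hedgehog ligands are secreted by the gut epithelium and act mainly on the mesenchymal cells beneath it. The receptor Patched (Ptch1) holds the transducer Smoothened (Smo) inactive until ligand binds, after which GLI transcription factors, otherwise restrained by Sufu or cut into repressors, switch on target genes. Gli1, Ptch1 and Hhip are themselves such targets, so their transcript levels are commonly used to read the activity of the pathway. In the adult colon Ihh is the ligand of differentiated surface epithelium, while Shh is made by few epithelial cells.

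Of the 9 genes, Shh alone differed by 2-fold or more between the arrays, and it was higher in Hif-2αΔIE. Ihh and the target genes Ptch1, Gli1 and Hhip were higher by smaller amounts, and Smo, Gli3 and Sufu were lower by similar amounts. Gli2 was slightly higher on its brighter probe set and slightly lower on the other. Values are on the log2 scale of RMA (robust multi-array average), differences are Hif-2αΔIE minus Hif-2αF/F on that scale, and a gene is represented by its probe set of highest mean level unless stated. A gene counted as kept where at least 1 array reached 6.11, the median level of all probe sets. All members but Gli1 were kept, which left 8. Of these 5 were higher and 3 lower in Hif-2αΔIE, with a median of 0.21, while over all 11899 genes kept 52.7% were higher, 46.5% were lower and the median was 0.02. At 2-fold, 1 of the 8 was higher and 0 were lower, against 1.15% and 5.30% of all genes kept. Since the set was chosen on this contrast, nothing is read from these counts.

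**Figure D1:**
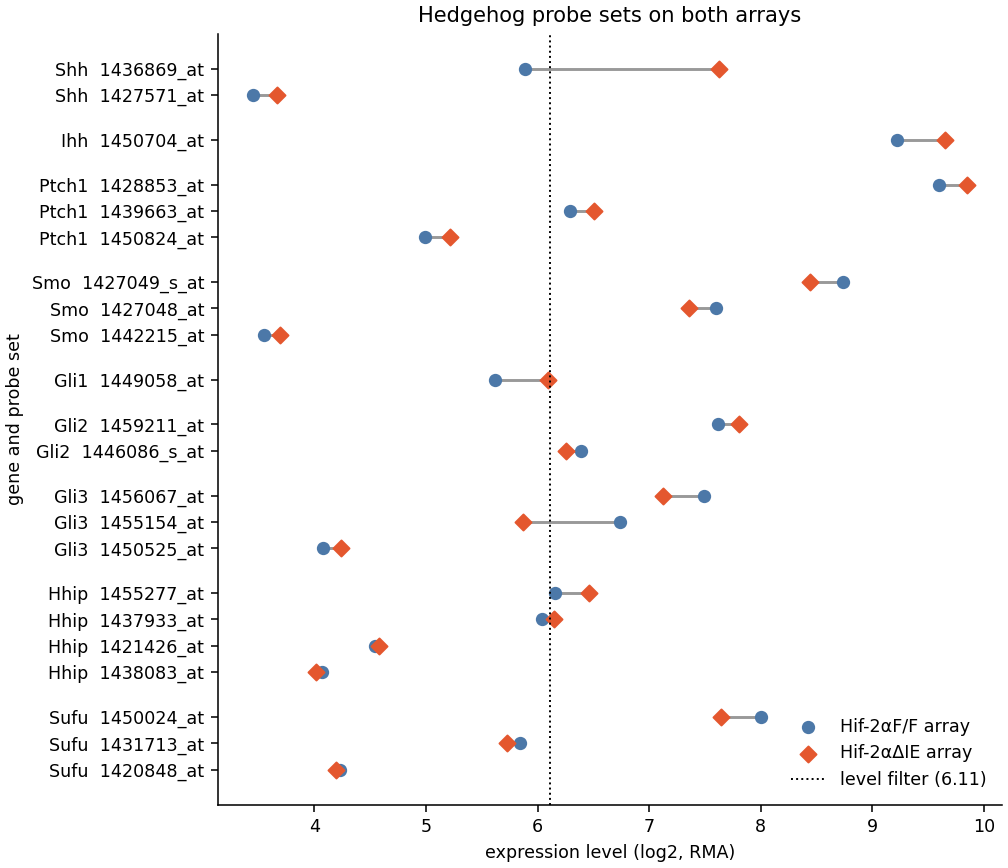
Level (log2, RMA) of each of the 22 probe sets of the 9 Hedgehog genes on the Hif-2αF/F array (circles) and the Hif-2αΔIE array (diamonds), joined by a line, with the level of 6.11 used as a filter dotted. Only the position of the 2 symbols of a line can be compared, because probe sets differ in brightness for the same transcript; Shh 1436869_at has the longest line, from 5.89 to 7.63.

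Among the ligands, Shh (Sonic hedgehog) was read by 2 probe sets. Probe set 1436869_at read 5.89 on the Hif-2αF/F array and 7.63 on the Hif-2αΔIE array, a difference of 1.74. The Hif-2αF/F value lies below the level filter, so the size of the ratio rests on a dim value. The second, 1427571_at, read 3.45 and 3.67, a difference of 0.21 at a level below the filter on both arrays. Shh was thus seen to differ by a single probe set, and its mean over both probe sets differed by 0.98. Among the 11899 genes kept, 8 had a larger rise than Shh, the value for which the set was chosen.

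Ihh (Indian hedgehog) has 1 probe set, which read 9.22 in Hif-2αF/F and 9.65 in Hif-2αΔIE. It was higher in Hif-2αΔIE by 0.43, or 1.35-fold, and 8.03% of all genes kept had a larger rise. Both ligands were therefore higher on the same array, Ihh by far less than Shh. Dhh (Desert hedgehog), the remaining mammalian ligand, read 4.24 and 4.25 on its brighter probe set. Its dimmer one read 3.92 and 4.47, a difference of 0.55, and both lay below the filter on both arrays.

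The receptor gene Ptch1 was higher in Hif-2αΔIE by nearly the same amount on all 3 of its probe sets. The brightest read 9.60 and 9.84, the next 6.29 and 6.51, and the dimmest, which did not reach the filter, 4.99 and 5.22. The differences were 0.24, 0.21 and 0.23. Ptch1 both receives the ligand and is induced by the pathway, and 19.6% of all genes kept had a larger rise than its brightest probe set.

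Hhip encodes a membrane protein that binds Hedgehog ligands and withholds them from Ptch1. Its brightest probe set read 6.16 in Hif-2αF/F and 6.46 in Hif-2αΔIE, a difference of 0.30, and the second read 6.04 and 6.14, a difference of 0.10. The other 2 probe sets lay below the filter and differed by 0.04 and -0.05. All 4 readings of Hhip are close to or below the filter, where RMA compresses differences.

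Smo, the transducer that Ptch1 restrains, went the other way. Its 2 brighter probe sets read 8.73 and 7.60 in Hif-2αF/F against 8.44 and 7.36 in Hif-2αΔIE, differences of -0.29 and -0.24. The dimmest lay below the filter, at 3.55 and 3.69. The brightest can match more than 1 transcript, as its name ending in _s_at shows, and the next, without that ending, differed in the same direction.

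The 3 GLI genes did not move as one. Gli1, an activator and the usual readout of the pathway, has 1 probe set, which read 5.62 in Hif-2αF/F and 6.09 in Hif-2αΔIE, a difference of 0.47. Neither value reached the filter, so Gli1 is left out of the counts above. Gli2, the main activator, read 7.62 and 7.80 on its brighter probe set and 6.39 and 6.25 on its dimmer one, differences of 0.185 and -0.14. The direction for Gli2 therefore depended on the probe set. Gli3, which acts largely as a repressor, was lower in Hif-2αΔIE on both probe sets that reached the filter. They read 7.49 and 6.74 in Hif-2αF/F against 7.12 and 5.87 in Hif-2αΔIE, differences of -0.37 and -0.86, and its dimmest read 4.08 and 4.24.

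Sufu, which binds GLI proteins in the cytoplasm and holds them back, read 8.00 in Hif-2αF/F and 7.64 in Hif-2αΔIE on its brightest probe set, a difference of -0.36. Its other probe sets, both below the filter, read 5.84 and 5.72, and 4.23 and 4.20. Of all genes kept, 15.8% were lower than Sufu by this measure, 15.6% were lower than Gli3 and 18.5% lower than Smo.

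With no replicate arrays, the only gauge of error within these data was the agreement between probe sets of a gene. In 5110 genes 2 or more probe sets reached the filter; the gap between the differences of their 2 brightest had a median of 0.10 and stayed within 0.41 in 95% of these genes. Of the 5 members with such a pair, the gap was 0.03 for Ptch1, 0.05 for Smo, 0.20 for Hhip, 0.32 for Gli2 and 0.496 for Gli3. In 4 of the 5 both probe sets had the same sign, Gli2 being the exception. Shh, whose second probe set lay below the filter, and Ihh, with 1 probe set, have no such pair. This gauge covers probe sets on the same arrays and says nothing about the spread between mice, so the difference of no member, Shh included, is shown to be larger than experimental error.

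**Figure D2:**
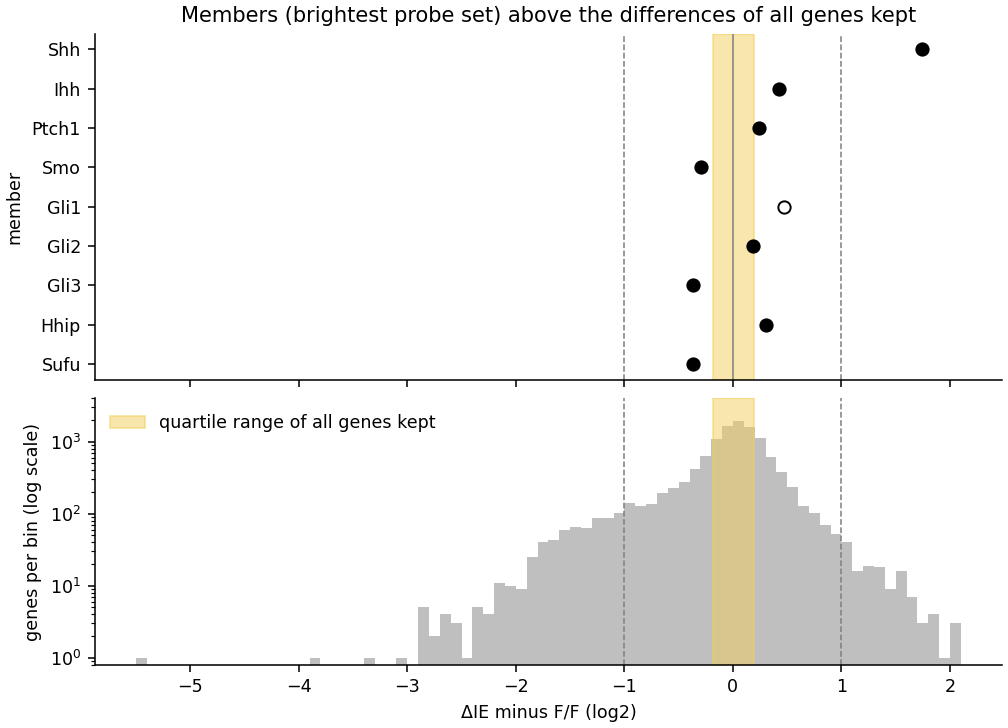
Upper panel, the difference between arrays (Hif-2αΔIE minus Hif-2αF/F, log2) of each of the 9 members by its brightest probe set, with an open circle for Gli1, which did not reach the level filter; lower panel, the number of genes per bin for all 11899 genes kept, on a log axis. The shaded band runs from the lower quartile of all genes, -0.18, to the upper, 0.19, and dashed lines mark 2-fold; Shh lies in the right tail at 1.74, while the other members lie between -0.37 and 0.47.

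Genes whose difference lay nearest to that of Shh were the transcript 2210407C18Rik (1.74), the cyclic nucleotide phosphodiesterase gene Pde1c (1.71), Tph1 (1.695), which encodes the enzyme that starts serotonin synthesis in enteroendocrine cells, Tex9 (1.69) and the mucin glycosylation enzyme gene B3gnt6 (1.69). Likeness here means the distance between differences over 2 arrays, and 4 genes lay within 0.05 of Shh. Around Ihh the scale is crowded, with 402 genes within 0.05, so the 5 nearest (2900052L18Rik, Mrps36, 4833439L19Rik, Atp2b1 and Coa7) are interchangeable with many others.

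RefSeq promoter sequences of build GRCm38.p6 were found for 7 members, Ihh, Ptch1, Smo, Gli2, Gli3, Hhip and Sufu, and the 250 bases before each gene's start were searched on both strands. The letters searched were ACGTG and GCGTG, the core that HIF proteins bind, and GACCACCCA, the core bound by GLI proteins, with its centre ACCACCC, which lies inside it. ACGTG was in 0 of the 7 and in 16.6% of all 32851 promoters of that length, and GCGTG was in 3 of the 7 (Smo, Gli2 and Sufu) and in 28.2% of all. GACCACCCA was in 0 of the 7 and in 0.225% of all, and ACCACCC was in Gli2 and in 3.92% of all. The sequences given are those of Ihh and Ptch1, the ligand and the receptor gene that were higher in Hif-2αΔIE, and Gli2, the member that holds both a GCGTG and an ACCACCC. Each runs 5′ to 3′ on the gene's strand, which is the minus strand for all of them, and capitals mark matches, both read here as their reverse complement: GGGTGGT begins 205 bases and CACGC 166 bases before the start of Gli2. The stretches are chr1:74951673-74951922 for Ihh, chr13:63565736-63565985 for Ptch1 and chr1:119053620-119053869 for Gli2.
Ihh: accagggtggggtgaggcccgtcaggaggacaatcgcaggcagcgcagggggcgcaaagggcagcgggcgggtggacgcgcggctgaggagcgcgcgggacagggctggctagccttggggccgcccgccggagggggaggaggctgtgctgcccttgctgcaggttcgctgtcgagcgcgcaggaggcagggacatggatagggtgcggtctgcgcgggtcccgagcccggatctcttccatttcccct
Ptch1: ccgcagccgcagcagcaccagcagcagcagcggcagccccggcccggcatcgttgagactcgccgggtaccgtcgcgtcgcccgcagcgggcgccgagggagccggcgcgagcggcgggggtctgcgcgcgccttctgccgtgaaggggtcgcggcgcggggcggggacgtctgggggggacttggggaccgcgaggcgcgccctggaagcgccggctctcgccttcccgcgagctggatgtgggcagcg
Gli2: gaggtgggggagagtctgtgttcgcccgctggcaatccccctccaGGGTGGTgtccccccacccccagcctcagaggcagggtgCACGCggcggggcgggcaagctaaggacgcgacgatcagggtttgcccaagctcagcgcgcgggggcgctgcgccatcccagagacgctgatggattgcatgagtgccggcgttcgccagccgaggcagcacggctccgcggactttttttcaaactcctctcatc
Ihh and Ptch1 hold none of these letters in this window, and a match or its absence describes the sequence alone. The windows of both genes are rich in G and C, at 72% and 78.4% against a median of 52.4% over all promoters.

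Other genes that make, release or capture the ligands differed in both directions. Of 13 on the list, 12 had a probe set and 8 were kept, 4 higher and 4 lower in Hif-2αΔIE, with 0 at 2-fold and a median of 0.03. Over all genes kept, 52.7% were higher and 46.5% lower, and 1.15% and 5.30% were so by 2-fold. The co-receptors, which present ligand to Ptch1, were split. Boc was higher, at 6.86 in Hif-2αF/F and 7.67 in Hif-2αΔIE on its brightest probe set, a difference of 0.82, and by 0.55 on the second. Its relative Cdon read 8.24 and 7.60, a difference of -0.63. Gas1 differed by -0.52 on its brightest probe set, and its second read 8.48 and 8.04, a difference of -0.44. The glypican gene Gpc3, whose product competes with Ptch1 for ligand, differed by -0.44. Disp1 and Disp2 (Dispatched), of which Disp1 is needed to release the lipid-modified ligand, differed by 0.26 and 0.20. Hhat, the enzyme that attaches palmitate to the ligand, read 5.85 and 5.59, below the filter.

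Between Smo and the GLI proteins lie kinases, scaffold proteins and ubiquitin ligase subunits. Of 17 such genes 16 had a probe set and 13 were kept, 6 higher and 7 lower, with a median of -0.14. Among all genes kept, 52.7% were higher and 46.5% lower. At 2-fold, 0 of the 13 were higher and 1 was lower, against 1.15% and 5.30% of all genes kept. Prkacb, a catalytic subunit of protein kinase A, whose phosphorylation of GLI proteins prepares their conversion to repressors, read 10.35 in Hif-2αF/F and 9.04 in Hif-2αΔIE, a 2.47-fold lower level. Its second probe set read 7.27 and 5.64. The paralog Prkaca differed by 0.09. Arrb2 (a beta-arrestin) read 9.47 and 8.65, a difference of -0.82, with -0.91 on its second probe set. Evc, a ciliary partner of Smo, differed by -0.50 on its brightest probe set and by 0.30 on the dimmer one, which lay below the filter, and its partner Evc2 differed by -0.27. The kinase gene Dyrk2 and the ubiquitin ligase subunit gene Btrc both differed by 0.29, and the GLI scaffold Kif7 read 6.02 and 6.08, below the filter.

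Hedgehog transduction in vertebrates takes place in the primary cilium. Of 22 ciliary genes 19 had a probe set and 15 were kept, 5 higher and 10 lower in Hif-2αΔIE, with 0 at 2-fold and a median of -0.18. Over all genes kept, 52.7% were higher and 46.5% lower, and 1.15% and 5.30% were so by 2-fold. The lowest were Tulp3 (-0.55), which carries receptors into the cilium, and the intraflagellar transport genes Ift57 (-0.50) and Ift80 (-0.35). The motor gene Kif3a differed by -0.30 on its brightest probe set, and its dimmer ones differed by -0.18, -0.19 and 0.21. Mks1 was highest at 0.27, and Ift172 and Ift88 differed by -0.03 and 0.10.

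**Figure D3:**
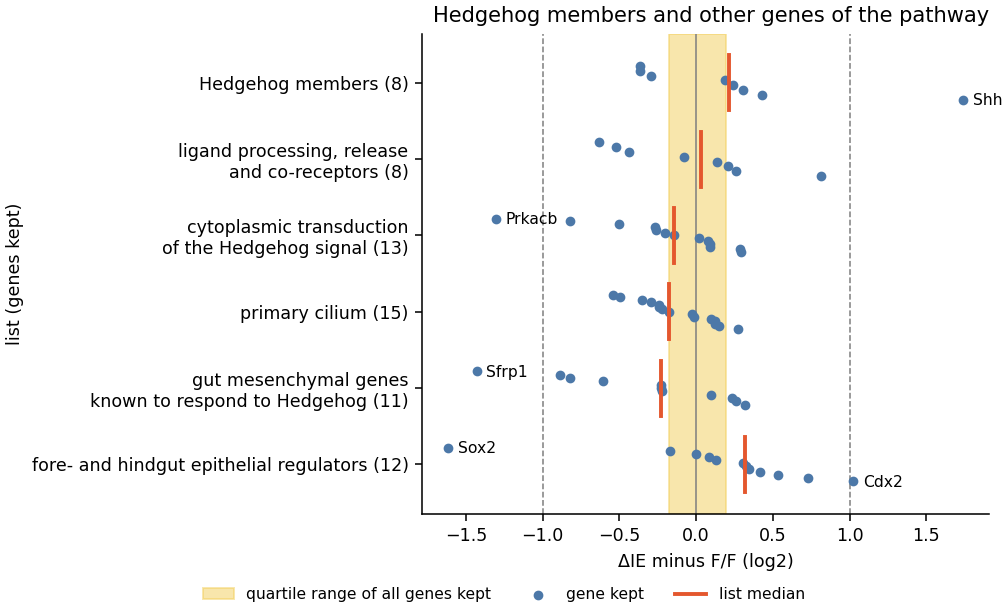
Difference between arrays (Hif-2αΔIE minus Hif-2αF/F, log2) of each gene kept (points) in the Hedgehog set and 5 other lists, with the number kept in brackets and a vertical bar at the list median. Shaded is the range between the quartiles of all genes kept, dashed lines mark 2-fold, and genes past 2-fold are named; list medians run from -0.23 for mesenchymal genes to 0.32 for epithelial regulators.

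Mesenchymal genes that are known to respond to Hedgehog in the gut differed in both directions. Of 13 genes 11 were kept, 4 higher and 7 lower in Hif-2αΔIE, with a median of -0.23. Over all genes kept, 46.5% were lower, and 5.30% were lower by 2-fold. Foxf1, a forkhead factor of gut mesenchyme, read 8.55 in Hif-2αF/F and 8.33 in Hif-2αΔIE, and Bmp4, a growth factor of subepithelial cells, read 8.88 and 8.66, both differing by -0.23. Wnt5a read 8.68 and 7.86, a difference of -0.82, and Bmp2 10.43 and 9.54, a difference of -0.89; Bmp2 is made by epithelium as well. Sfrp1, a secreted Wnt inhibitor, was the only gene of the list at 2-fold, at 10.07 and 8.64 (2.70-fold lower). Its 5 probe sets differed by -0.20 to -1.51. The glucocorticoid-activating enzyme gene Hsd11b1 differed by -0.61. Among the 4 higher genes the largest differences were those of Ccnd1 (cyclin D1, 0.32) and Mycn (0.26). Which cells of the scraping held the Ccnd1 and Mycn transcripts was not tested. Foxl1, a marker of subepithelial telocytes, read 4.49 and 4.96, below the filter on both arrays.

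Stromal markers moved on the same arrays. All 12 fibroblast and stroma markers kept were lower in Hif-2αΔIE, 2 of them at 2-fold (Thy1 and Col1a1), with a median of -0.81. Over all genes kept, 46.5% were lower, and 5.30% were lower by 2-fold. The summed level of the 12 markers (log2 of the sum of their linear values) was 15.31 in Hif-2αF/F and 14.58 in Hif-2αΔIE. Pdgfra, which marks the mesenchymal cells beneath the epithelium, differed by -0.62. By their brightest probe sets, Ptch1 (0.24), Hhip (0.30), Gli2 (0.185) and Boc (0.82) were higher on the array on which these stromal transcripts were lower. For Hhip the second probe set differed by 0.10, and for Gli2 by -0.14. Gli3 (-0.37), Cdon (-0.63) and Gas1 (-0.52) lay on the same side as the stromal markers. In bulk tissue, fewer cells of a type and less RNA per cell cannot be told apart, and the part of the stromal difference in the values of these genes was not tested. The 10 smooth muscle markers, which cover another cell type that receives Hedgehog signals, had 6 higher and 4 lower, a median of 0.06 and summed levels of 15.03 on both arrays. Markers of enteric neurons and glia had a median of 0.09 over 4 genes kept, those of interstitial cells of Cajal went both ways (Kit 0.93 and Ano1 -1.51), and all 6 endothelial markers were lower, with a median of -0.64.

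Beside the ligands, most markers of colonic epithelium were higher on the Hif-2αΔIE array, with exceptions in each list. Of 10 colonocyte markers 8 were higher and 2, Aqp8 and Car4, both differed by -0.05, with a median of 0.28 and summed levels of 16.02 in Hif-2αF/F and 16.32 in Hif-2αΔIE, so the difference of Ihh (0.43) lay above the median of these markers and below those of Slc9a3 (1.47) and Slc51b (1.08). Of 9 crypt base markers 6 were higher and 3 lower, with a median of 0.20, and their summed level was 11.72 in Hif-2αF/F and 11.66 in Hif-2αΔIE. Lgr5, the receptor that marks colonic stem cells, read 5.84 and 6.67, whereas Olfm4 read 7.59 and 6.06 and Smoc2 differed by -0.71. Goblet cell markers had a median of 0.21, with 7 of 8 higher and Fcgbp at -0.01. For comparison, 52.7% of all genes kept were higher and 46.5% lower, and 1.15% and 5.30% were so by 2-fold. Enteroendocrine markers had a median of 1.09, with 6 of 10 at 2-fold higher and 1 at 2-fold lower. The latter, the peptide hormone gene Insl5, had the difference farthest from 0 in that list (-2.73), and Pyy differed by -0.58. Squamous epithelium markers, which a scraping that reaches the anorectal junction would carry, were all lower (7 kept, 5 at 2-fold, median -1.55), with summed levels of 14.01 and 12.51. Skeletal muscle markers were all higher (5 kept, 5 at 2-fold, median 1.28). Of these, Mylpf (2.09) and Tnnc2 (1.87) had larger differences than Shh (1.74). The part of any of these cell types in the difference of Shh was not tested.

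Regulators of gut epithelial identity were fixed as a list because ligand genes are expressed by epithelium. Of the 12 kept, 9 were higher in Hif-2αΔIE and 3 lower, with a median of 0.32, while 52.7% of all genes kept were higher and 46.5% lower. At 2-fold, 1 was higher and 1 lower, against 1.15% and 5.30% of all genes kept. Cdx2, the regulator of intestinal fate, was highest at 10.49 in Hif-2αF/F and 11.51 in Hif-2αΔIE (2.03-fold), and by 1.34 on the log2 scale on its second probe set. Foxa3 differed by 0.73, Sox9, a factor of crypt base cells, by 0.54 and Cdx1 by 0.42. Sox2, a factor of foregut and squamous epithelium, went the other way, at 8.47 and 6.85 (3.07-fold lower). Foxa1 and Foxa2 differed by 0.13 and -0.17. Shh was higher on the array on which Sox2 and squamous keratins were lower and Cdx2 was higher, and any relation between them was not tested.

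**Figure D4:**
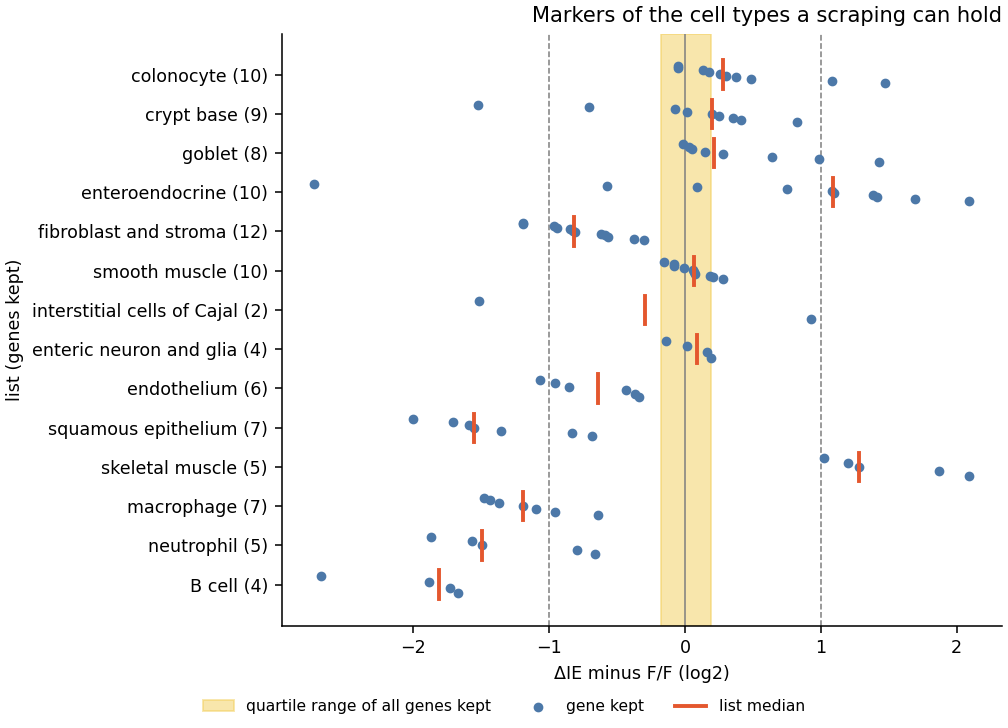
Difference between arrays (Hif-2αΔIE minus Hif-2αF/F, log2) of markers of 14 cell types that a mucosal scraping can hold, with points for genes kept, a bar at the list median and the number kept in brackets. Shaded is the range between the quartiles of all genes kept and dashed lines mark 2-fold; the stromal median is -0.81, the smooth muscle median 0.06 and the colonocyte median 0.28.

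Leukocyte markers also differed on these arrays, which both come from DSS-treated mice. The macrophage, neutrophil and B cell lists were all lower in Hif-2αΔIE, with medians of -1.19, -1.49 and -1.81. For comparison, 46.5% of all genes kept were lower, and their median was 0.02. The array's 4 control probe sets for Cre recombinase read 2.92 to 4.22 on the Hif-2αF/F array and 7.86 to 10.01 on the Hif-2αΔIE array. Because these are control probe sets, transgene transcript cannot be told apart from control RNA added at hybridisation. The genotype labels are therefore not settled by them. Epas1 itself read 11.90 and 11.77 on its brighter probe set and 6.98 and 7.15 on its dimmer one, differences of -0.13 and 0.16, and the place of these probe sets relative to the deletion was not examined.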

How the data were processed

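RNA of colon mucosal scrapings had been hybridised to 1 array per genotype (2 in all), from 250 ng of total RNA per array per the labels' protocols. The deposited values are log2 expression of 45101 probe sets, produced by the authors with RMA in affy, per the submitters' processing notes; the sources used here give no versions, filters or list of arrays normalized together. RMA gives no detection call, compresses differences of dim probe sets and, through quantile normalization, sets the arrays' distributions equal. Samples were grouped by the genotype label. Symbols came from a platform annotation table: 34958 probe sets had 1, 932 had several and 9211 had none, and only the first were used, without 64 control probe sets. Each gene took its probe set of highest mean, and was kept where its higher value reached 6.11.

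No test was possible with 1 array per genotype. Genes were counted at 2-fold, and lists were described by counts and medians beside all genes kept. The members and lists were chosen with earlier results of these data known. The text names all members, in each other pathway list the genes at 2-fold and up to 6 of largest difference, up to 4 markers per list, and the 5 genes nearest to each ligand; Kif7, Hhat, Dhh, Foxl1, Prkaca, Foxf1, Bmp4, Ift172, Ift88, Pdgfra, Foxa1, Foxa2, Epas1, Aqp8, Car4, Fcgbp and Pyy were picked for their known role after their values had been seen. Alternatives were the mean over probe sets, the probe set brightest in F/F, leaving out _s_at and _x_at probe sets, median centring, a lowess correction (span 0.3), other filters and thresholds of 1.5-fold and 3-fold. The gene table was tested on simulated data. Python 3.11.15, numpy 2.4.6, pandas 2.3.3, statsmodels 0.14.6 and matplotlib 3.10.9 were used.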

Additional observations from a re-analysis of the deposited data

How the results depend on the processing

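An alternative was taken to move a difference or a list median where it shifted it by over 0.41, the limit within which 95% of pairs of probe sets lay, and a count where it differed by over 1.5 times. None of the 9 members changed sign under the 5 alternatives for values, and 44 of 45 such values stayed within the limit. The exception was Shh, at 0.98 in place of 1.74 with the mean over its probe sets, of which the dimmer lay below the filter. Little can be read from this tally, since only 2 of the 8 members kept differed by more than the limit. The probe set brightest in F/F gave every member its main value, and median centring shifted all members alike. With the mean over probe sets, Hhip differed by 0.10 in place of 0.30. Gli2 then differed by 0.02 in place of 0.185, and Sufu by -0.17 in place of -0.36. The number of members at 2-fold higher was 1, and it was 0 with the mean over probe sets, with the filter at the 75th percentile and with both arrays required to pass the filter; in all of these Shh did not pass the filter, and 4, 3 and 7 members were kept in place of 8. The number at 2-fold lower was 0 throughout. The median of the ligand processing list was -0.58 with the filter at the 75th percentile in place of 0.03, and its sign also turned with the mean over probe sets (-0.21), with no filter (-0.03) and with both arrays required to pass (-0.08). With the filter at the 75th percentile the medians of the transduction and cilium lists turned from -0.14 to 0.05 and from -0.18 to 0.13. No paired analysis was possible because each genotype has 1 array. No replicate could be left out for the same reason. Signal over background limits Gli1, Hhip and Shh in Hif-2αF/F, which lie near or below the filter.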
